A study of Mus musculus with 14 samples.

Results

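Ocstamp and Dcstamp encode 2 multipass membrane proteins that osteoclast precursors need to fuse, and both averaged several-fold higher in the tibia of ovariectomized mice given zoledronic acid than in any other group. The pair was picked by gene symbol, giving 2 of the 55291 symbols in the count table, and both passed the filter on low counts that left 21761 genes. The pair was proposed with its values over these libraries known, so its levels and differences across all 5 groups are given as a description, with no test. RNA came from tibias of wild-type female C57Bl/6 mice in 14 libraries. The groups were ovariectomy with zoledronic acid (OVX-ZA, n = 3), ovariectomy with hippuric acid (OVX-HA, n = 3), ovariectomy with 3'(3'hydroxyphenyl) propionic acid (OVX-PPA, n = 2), ovariectomy with the control PBS (OVX-PBS, n = 3) and sham surgery (sham, n = 3). Agents were given for 8 weeks, beginning 2 to 4 days after the operation. The sources used here do not give doses, the age of the mice or whether each library is 1 animal, so the spread between libraries may be partly technical. OVX-PBS replicate 1 and OVX-HA replicate 2 stood apart in holding few transcripts of the central nervous system, and OVX-ZA replicates 1 and 2 and sham replicate 3 in holding transcripts of lymph node.

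Osteoclasts, the cells that resorb bone, form when mononuclear precursors of the monocyte lineage meet M-CSF and RANKL and fuse into giant cells with many nuclei. RANKL acts through its receptor RANK and the transcription factors c-Fos and NFATc1, which switch on Dcstamp (dendritic cell-specific transmembrane protein), Ocstamp (osteoclast stimulatory transmembrane protein) and the genes of resorption. Mice that lack either protein form osteoclasts with a single nucleus, and those cells resorb less. Dcstamp was first described in dendritic cells, and Ocstamp in osteoclast cultures treated with RANKL. Zoledronic acid is a nitrogen-containing bisphosphonate that binds to bone mineral, enters osteoclasts as they resorb and blocks farnesyl diphosphate synthase of the mevalonate pathway. Hippuric acid and 3'(3'hydroxyphenyl) propionic acid are small aromatic acids that gut microbes help to form from dietary polyphenols. The study compared each agent with PBS after removal of the ovaries, a standard model of bone loss after sex-steroid deficiency.

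Ocstamp (ENSMUSG00000027670) lies on mouse chromosome 2 in build GRCm38 (mm10), from 165393760 to 165400405 on the - strand, with 3657 bases of exon. Dcstamp (ENSMUSG00000022303) lies on chromosome 15 from 39745930 to 39760938 on the + strand, with 2664 bases of exon. The annotation places no other gene over either locus, and the deposited values of both genes were whole numbers in all 14 libraries. Near-identical copies of either gene were not searched for here.

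Ocstamp in OVX-ZA had 241, 205 and 347 estimated counts in replicates 1 to 3. It had 68, 101 and 61 in OVX-HA, 50 and 96 in OVX-PPA, 54, 89 and 90 in OVX-PBS, and 102, 136 and 57 in sham. The 3 OVX-ZA libraries held 11.9 to 25.1 M counts in total (M, 1000000 counts) against 18.7 to 35.4 M in the other groups, and their counts of the gene were the highest of the 14 before any scaling. After scaling by library total with TMM factors, Ocstamp read 19.9, 9.16 and 14.3 CPM (counts per 1000000 of the scaled total) in OVX-ZA. It read 1.86, 2.96 and 2.00 CPM in OVX-HA, 2.71 and 3.11 in OVX-PPA, 3.09, 2.71 and 2.40 in OVX-PBS, and 3.29, 3.83 and 2.06 in sham. All 3 OVX-ZA libraries stood above the other 11, and the other 4 groups overlapped one another.

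Dcstamp followed the same division. It had 315, 276 and 337 estimated counts in OVX-ZA, 77, 133 and 71 in OVX-HA, 55 and 109 in OVX-PPA, 71, 107 and 159 in OVX-PBS, and 85, 174 and 76 in sham. On the TMM scale these were 26.0, 12.3 and 13.9 CPM in OVX-ZA, against 2.11, 3.89 and 2.33 CPM in OVX-HA, 2.98 and 3.53 in OVX-PPA, 4.06, 3.26 and 4.24 in OVX-PBS, and 2.74, 4.90 and 2.74 in sham. Replicate 1 of OVX-ZA was the highest library for both genes and replicate 2 the lowest of the 3. Even that lowest library exceeded the highest of the other 11 by 2.39 times for Ocstamp and by 2.52 times for Dcstamp.

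**Figure D1:**
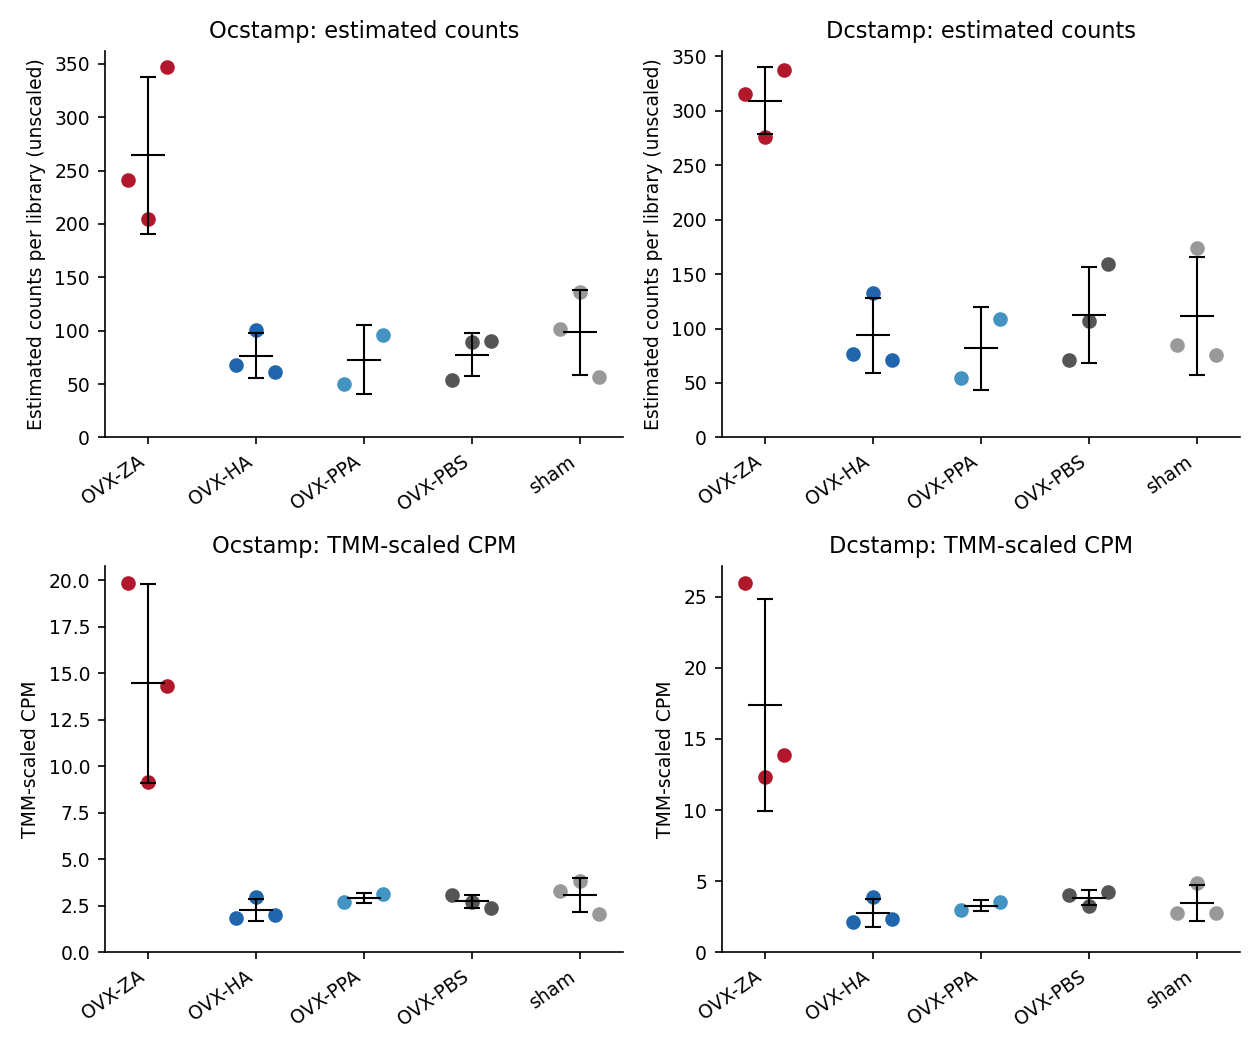
Estimated counts (upper panels) and TMM-scaled CPM (lower panels) of Ocstamp and Dcstamp in each library, by group. Points are libraries, the dash and bars are the group mean ± SD (n = 3, 3, 2, 3 and 3), and the 3 OVX-ZA libraries lie above the other 11 in all 4 panels.

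Ocstamp averaged 14.5 ± 5.36 CPM in OVX-ZA and 2.73 ± 0.345 in OVX-PBS (SD, n = 3 each), a log2 difference of 2.40 ± 0.311 (standard error from the fit) or 5.29-fold. Dcstamp averaged 17.4 ± 7.46 CPM in OVX-ZA and 3.85 ± 0.522 in OVX-PBS, a log2 difference of 2.17 ± 0.342 or 4.50-fold. Set against sham, OVX-ZA differed by 2.23 ± 0.307 for Ocstamp and 2.32 ± 0.342 for Dcstamp, so the OVX-ZA level was above that of sham mice as well as that of the ovariectomized controls. The comparisons of OVX-ZA with OVX-PBS and with sham share the OVX-ZA libraries. For both genes every OVX-ZA library was above every sham library, as was the case for 3.46% of all genes. Against OVX-HA the log2 differences were 2.66 ± 0.313 for Ocstamp and 2.64 ± 0.347 for Dcstamp. Against OVX-PPA they were 2.30 ± 0.362 and 2.40 ± 0.404. OVX-ZA stood wholly above OVX-HA for 3.1% of genes and wholly above OVX-PPA, with its 2 libraries, for 7.18%.

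For scale, 916 of 21761 genes (4.21%) had every OVX-ZA library above every OVX-PBS library, both members among them, and 88 genes (0.404%) had every OVX-ZA library above all 11 others. Among the 17414 genes with a mean of at least 1 CPM, 3 (0.0172%) had a lowest OVX-ZA value at least 2 times the highest of the others. They were Ocstamp, Dcstamp and Cyp2s1, a cytochrome P450, and this 2-fold bound was chosen after the values were seen. With edgeR's quasi-likelihood test and Benjamini-Hochberg adjustment, 0% of genes were called higher in OVX-ZA than in OVX-PBS, and the members were therefore not called. In that comparison 731 genes had an unadjusted p under 0.05. DESeq2 called 23 genes higher (0.106%), both members included, and 9 lower. The edgeR test called 1 gene (0.0046%) higher in OVX-ZA than in OVX-HA, which was Ocstamp. Because these contrasts bear on how the pair was chosen, nothing is read from those calls.

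Levels of the pair in ovariectomized controls overlapped those in sham mice. The Ocstamp mean was 2.73 ± 0.345 CPM with OVX-PBS, against 3.06 ± 0.910 CPM with sham (log2 difference -0.17 ± 0.304), and the Dcstamp mean was 3.85 ± 0.522 CPM with OVX-PBS, against 3.46 ± 1.25 CPM with sham (0.15 ± 0.335). Sham replicate 2 was the highest of these 6 libraries for each gene. Bone was sampled after 8 weeks, and earlier times were not analysed here. No gene was called between OVX-PBS and sham by edgeR (0% in each direction, 594 genes with unadjusted p under 0.05), and DESeq2 called 1.

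Both genes in mice given hippuric acid or 3'(3'hydroxyphenyl) propionic acid overlapped the OVX-PBS range. The OVX-HA mean of Ocstamp was 2.27 ± 0.596 CPM, a log2 difference of -0.26 ± 0.306 from OVX-PBS, and its OVX-PPA mean was 2.91 ± 0.283 CPM, a log2 difference of 0.10 ± 0.343. For Dcstamp the OVX-HA mean was 2.78 ± 0.973 CPM (-0.47 ± 0.337) and the OVX-PPA mean 3.26 ± 0.389 CPM (-0.23 ± 0.381). Within OVX-HA, replicate 2 was the highest for both genes, at 2.96 and 3.89 CPM, and replicates 1 and 3 were the lowest 2 of the 14 libraries for both. Replicate 2 is also the OVX-HA library with few transcripts of the central nervous system, with Mobp at 1.17 CPM against 507 and 486 CPM in replicates 1 and 3. Without it the log2 difference of OVX-HA from OVX-PBS was -0.50 for Ocstamp and -0.81 for Dcstamp. The part of that mixture in the values was not tested.

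The 2 acids differ in structure, with a glycine amide of benzoic acid in hippuric acid and a hydroxyl on the ring with a propionic acid chain in 3'(3'hydroxyphenyl) propionic acid. Set side by side, with doses not known, OVX-PPA minus OVX-HA was 0.36 ± 0.341 on the log2 scale for Ocstamp and 0.24 ± 0.379 for Dcstamp, and the ranges of the groups overlapped for both. By edgeR 0% of genes were called in each direction in OVX-HA or OVX-PPA against OVX-PBS and in OVX-PPA against OVX-HA. Unadjusted p was under 0.05 for 319, 408 and 260 genes in those comparisons, and DESeq2 called 0 in each.

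Ordered by group mean, Ocstamp ran from OVX-ZA (14.5 CPM) through sham (3.06), OVX-PPA (2.91) and OVX-PBS (2.73) to OVX-HA (2.27). Dcstamp ran from OVX-ZA (17.4 CPM) through OVX-PBS (3.85), sham (3.46) and OVX-PPA (3.26) to OVX-HA (2.78). In both genes every OVX-ZA library lay above every library of the other groups. The OVX-ZA libraries themselves spread widely, from 9.16 to 19.9 CPM for Ocstamp and from 12.3 to 26.0 CPM for Dcstamp. No other neighbours in either order were apart, since their ranges overlapped.

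Per kb of exon, Dcstamp was the more abundant of the 2. It averaged 6.53 ± 2.80 CPM per kb of exon in OVX-ZA, 1.04 ± 0.365 in OVX-HA, 1.22 ± 0.146 in OVX-PPA, 1.45 ± 0.196 in OVX-PBS and 1.30 ± 0.468 in sham. Ocstamp averaged 3.95 ± 1.47 CPM per kb in OVX-ZA, 0.621 ± 0.163 in OVX-HA, 0.796 ± 0.0773 in OVX-PPA, 0.747 ± 0.0943 in OVX-PBS and 0.836 ± 0.249 in sham. The Dcstamp level over the Ocstamp level, both per kb of exon, was above 1 in all 14 libraries and averaged 1.66 ± 0.283 in OVX-ZA, 1.65 ± 0.135 in OVX-HA, 1.53 ± 0.0344 in OVX-PPA, 1.96 ± 0.410 in OVX-PBS and 1.58 ± 0.377 in sham. By coding length the order was reversed in sham replicate 1. The ratio lay in overlapping ranges in OVX-ZA (1.33 to 1.85), OVX-PBS (1.65 to 2.43) and sham (1.14 to 1.83). The 2 OVX-PPA libraries, at 1.51 and 1.56, lay below the OVX-PBS range and within those of OVX-ZA and sham.

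The 2 genes also varied together among the libraries without zoledronic acid. Over those 11 libraries, Pearson's r of their log2 CPM was 0.74 and Spearman's rho 0.64, given as a description. Without the 2 libraries farthest from the median of Ocstamp, r over the remaining 9 was 0.47, in a narrower range of Ocstamp levels.

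The pair was next set against 3 other genes of osteoclasts. These were Ctsk, the collagen-cutting protease cathepsin K, Acp5, the tartrate-resistant acid phosphatase by which osteoclasts are stained, and Atp6v0d2, a subunit of the osteoclast proton pump that fusion also needs. Ctsk averaged 479 ± 140 CPM in OVX-ZA and 181 ± 4.95 in OVX-PBS, a log2 difference of 1.40 ± 0.292 (edgeR, adjusted p = 0.447). Acp5 averaged 424 ± 150 CPM in OVX-ZA and 267 ± 11.4 in OVX-PBS (0.66 ± 0.286, adjusted p = 0.899). Atp6v0d2 averaged 54.9 ± 16.9 CPM in OVX-ZA and 25.2 ± 2.31 in OVX-PBS (1.12 ± 0.297, adjusted p = 0.899). All 3 were smaller differences than those of the pair, whose values were known when it was chosen. None of the 3 passed by edgeR, which called no gene in OVX-ZA against OVX-PBS, and DESeq2 called only Ctsk of them.

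Expressed as a percentage of Ctsk, both per kb, Ocstamp ran from 1.05 to 1.33% in OVX-ZA, 0.486 to 0.724% with OVX-HA, 0.659 to 0.690% with OVX-PPA, 0.552 to 0.686% in OVX-PBS and 0.605 to 0.769% in sham. Dcstamp was 1.78 to 2.33% of Ctsk in OVX-ZA. It was 0.879 to 1.16% with OVX-HA, 0.996 to 1.08% with OVX-PPA, 1.05 to 1.34% in OVX-PBS and 0.880 to 1.23% in sham. Relative to Acp5 the gap was wider, with Ocstamp at 1.89 ± 0.282% in OVX-ZA and 0.568 ± 0.0763% in OVX-PBS, and Dcstamp at 3.08 ± 0.219% and 1.10 ± 0.104% in the same groups. Relative to Atp6v0d2, Ocstamp stood at 19.4 ± 3.76% in OVX-ZA and 8.12 ± 1.35% in OVX-PBS, and Dcstamp at 31.6 ± 3.59% and 15.6 ± 0.768%. In all 6 ratios every OVX-ZA library was above the other 11. These ratios use the same libraries that chose the pair and are a description. In bulk RNA of this kind, more osteoclasts and more RNA of a gene per osteoclast cannot be told apart from the level of a single gene.

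**Figure D2:**
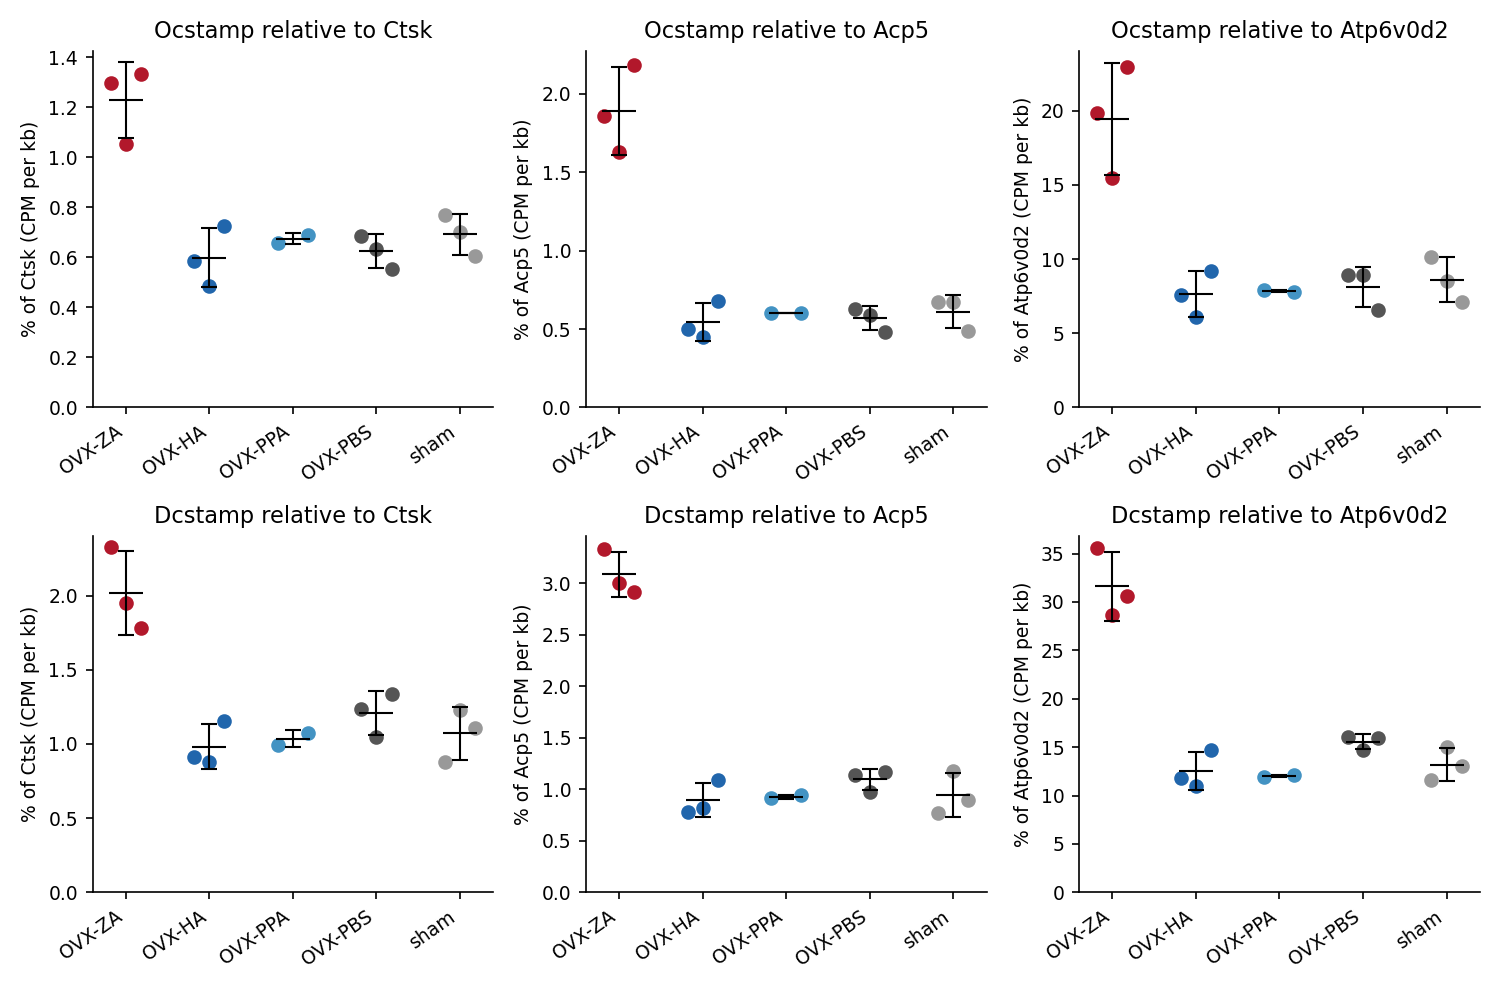
Level of Ocstamp (upper panels) and Dcstamp (lower panels) as a percentage of Ctsk, Acp5 and Atp6v0d2, all in CPM per kb of exon, by group. Points are libraries, the dash and bars are the group mean ± SD, and the OVX-ZA points lie above the points of all 4 other groups in each panel.

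Besides the pair, 21 genes known to act in osteoclast fusion or in its signalling were measured, Atp6v0d2 among them. None of the 21 passed in OVX-ZA against OVX-PBS by edgeR over all genes, 14 were above and 7 below 0, and the median log2 difference was 0.11, beside -0.04 over all genes tested. Of all genes tested, 43.8% were above 0 in this comparison, the share to set beside each list below. Itgav, the integrin alpha-v chain, averaged 65.9 ± 4.82 CPM in OVX-ZA and 44.9 ± 2.29 in OVX-PBS (0.55 ± 0.124, adjusted p = 0.559). Adam12, a metalloprotease of fusing cells, was lower, at 9.44 ± 1.09 CPM in OVX-ZA and 14.7 ± 1.64 in OVX-PBS (-0.64 ± 0.188, adjusted p = 0.899). Neither pair of groups overlapped. For scale, OVX-ZA stood wholly above OVX-PBS for 4.21% of all genes, and the share wholly below is not given here. An unadjusted p under 0.05 was reached by 4 of the 21, beside 3.36% of all genes.

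The list of RANKL and M-CSF ligands and receptors held 7 genes, including Tnfrsf11b, a decoy receptor for RANKL, and the adaptor Traf6. Of these 7, 6 were above 0, 5 had an unadjusted p under 0.05, and none passed the adjustment (list median 0.45). Oscar, the immunoreceptor that costimulates RANK, averaged 13.5 ± 4.93 CPM in OVX-ZA and 5.47 ± 0.327 in OVX-PBS (1.30 ± 0.278, adjusted p = 0.514). By library Oscar read 19.2, 10.7 and 10.7 CPM in OVX-ZA and 5.55, 5.12 and 5.76 in OVX-PBS, so replicate 1 led as it did for the pair. Tnfrsf11a, which encodes RANK, averaged 11.6 ± 2.81 CPM in OVX-ZA and 6.40 ± 0.702 in OVX-PBS (0.86 ± 0.187, adjusted p = 0.526). Tnfsf11, which encodes RANKL, averaged 3.54 ± 0.871 CPM in OVX-ZA and 1.77 ± 0.300 in OVX-PBS (1.02 ± 0.364, adjusted p = 0.899). Csf1, which encodes M-CSF, and its receptor Csf1r differed by 0.36 ± 0.0959 and 0.45 ± 0.166, both with an adjusted p of 0.899.

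Of the 14 transcription factors that activate the osteoclast program, 10 were above 0, beside 43.8% of all genes, with a median of 0.18. An unadjusted p under 0.05 (edgeR) was reached by 4 of them, 3 higher, beside 3.36% of all genes, and none passed. Nfatc1, the factor that acts on both fusion genes, averaged 81.6 ± 19.3 CPM in OVX-ZA and 58.6 ± 4.93 in OVX-PBS (0.48 ± 0.164, adjusted p = 0.899), with overlapping groups. Jdp2, an AP-1 family member needed for osteoclast formation, differed by 0.91 ± 0.186 between groups that did not overlap, as for 4.21% of all genes (adjusted p = 0.447). Prdm1, which encodes the repressor Blimp1 that acts on inhibitors of the program, differed by 0.99 ± 0.262, and the AP-1 subunit Jun by -0.60 ± 0.197, both with an adjusted p of 0.899.

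The repressors of the program were centred near 0, with 3 of 7 above, close to the 43.8% of all genes, none passing and a median of -0.03. Bcl6, which represses Dcstamp among other genes, averaged 58.5 ± 7.96 CPM in OVX-ZA and 72.4 ± 13.8 in OVX-PBS (-0.30 ± 0.202, adjusted p = 0.899), and the groups overlapped. Tal1, reported as a repressor of Dcstamp and also an erythroid factor, differed by -0.64 ± 0.401, Zbtb7a by -0.15 ± 0.108 and Irf8, which holds back Nfatc1, by 0.04 ± 0.346.

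A further list, called resorption below, held 18 genes taken as effectors of mature osteoclasts. Of these, 15 were above 0, beside 43.8% of all genes, and 8 had an unadjusted p under 0.05, beside 3.36%. None passed, and the list median was 0.45. Mmp9, a gelatinase of osteoclasts and neutrophils, averaged 636 ± 232 CPM in OVX-ZA and 237 ± 67.4 in OVX-PBS (1.42 ± 0.332, adjusted p = 0.671), the highest difference in the 5 lists and below that of both fusion genes. Slc9b2, a sodium-proton exchanger induced by RANKL, averaged 23.0 ± 5.64 CPM in OVX-ZA and 12.5 ± 0.572 in OVX-PBS (0.88 ± 0.235, adjusted p = 0.899). DESeq2 called 6 of the 67 genes in the 5 lists, all higher in OVX-ZA, beside 23 of all genes (0.106%) called higher. The 6 were Ctsk, Jdp2, Oscar, Tnfrsf11a, Mmp9 and Itgav, with DESeq2 adjusted p between 0.00240 and 0.0162. The lists were drawn up with earlier results of these libraries known.

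**Figure D3:**
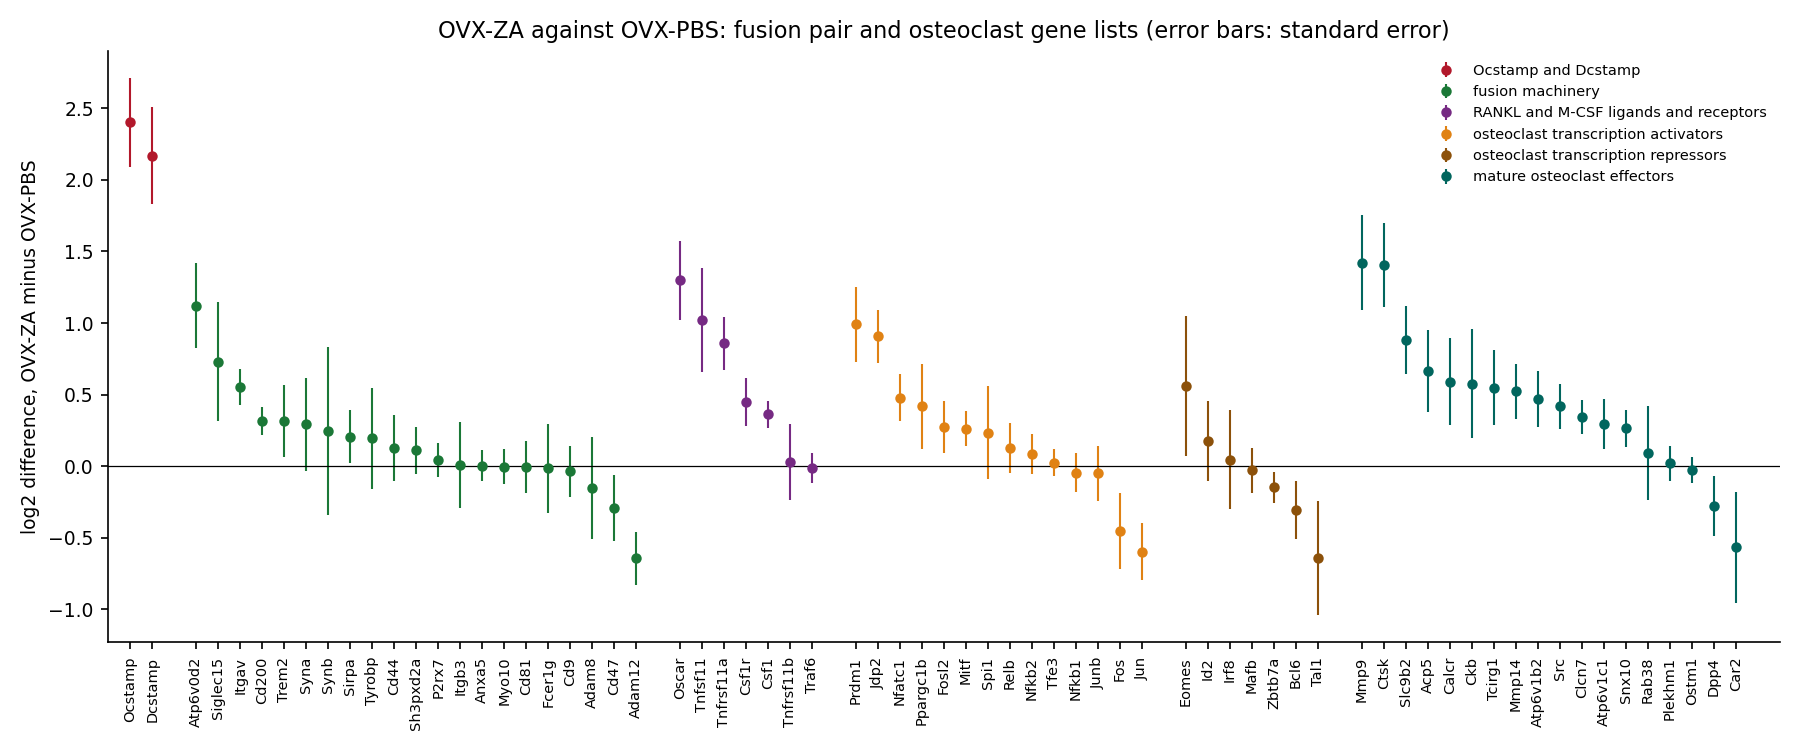
Log2 difference, OVX-ZA minus OVX-PBS, of Ocstamp and Dcstamp and of the 67 genes of the 5 osteoclast lists, with standard errors from the edgeR fit. Ocstamp (2.40) and Dcstamp (2.17) lie above all 67, of which Mmp9 is the highest at 1.42 and Tal1 and Adam12 the lowest at -0.64.

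In OVX-HA and OVX-PPA against OVX-PBS and in OVX-PBS against sham, edgeR and DESeq2 each called 0 genes of these lists. In OVX-ZA against sham edgeR called 0 of them, and DESeq2 called Ctsk (adjusted p = 0.00478) and Oscar (adjusted p = 0.0405). Both were higher in OVX-ZA, where DESeq2 called 12 genes higher among all genes. In OVX-HA against OVX-PBS the list medians were 0.02 for fusion, 0.01 for ligands and receptors, -0.11 for activators, -0.06 for repressors and 0.0032 for resorption. In OVX-PPA against OVX-PBS they were -0.03, 0.04, -0.06, -0.03 and 0.01 in the same order, and in OVX-PBS against sham -0.02, -0.11, 0.0041, -0.06 and -0.04. The medians over all genes were 0.01, -0.02 and 0.0079 in those 3 comparisons.

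The genes most like each member, by Pearson's r of log2 CPM over the 14 libraries, were largely shared. For Ocstamp they were Ctsk (r = 0.97), Ccl9 (0.96), Slc37a2 (0.96), Oscar (0.95), Tnfrsf11a (0.95) and Mst1r (0.95). For Dcstamp they were Oscar (0.97), Ctsk (0.97), Ccl9 (0.97), Slc37a2 (0.96), Slc9b2 (0.95) and Jdp2 (0.95). Ccl9 encodes a chemokine of osteoclasts and myeloid cells, Slc37a2 a sugar-phosphate transporter and Mst1r the receptor tyrosine kinase RON. Of 17413 genes ranked, Dcstamp was the closest to Ocstamp, and Ocstamp was the second closest to Dcstamp after Oscar (both r = 0.97). The 3 OVX-ZA libraries form a cluster of their own in these values, so r over 14 libraries includes the group difference. Ranked instead on deviations from the group means, where r between the pair was 0.81, Dcstamp was at rank 55 for Ocstamp and Ocstamp at rank 236 for Dcstamp. Over the 11 libraries without OVX-ZA, r with Ocstamp was 0.83 for Ctsk, 0.79 for Oscar, 0.79 for Tnfrsf11a and 0.59 for Ccl9, and r with Dcstamp was 0.85 for Slc9b2, 0.85 for Oscar, 0.84 for Ctsk and 0.74 for Ccl9.

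**Figure D4:**
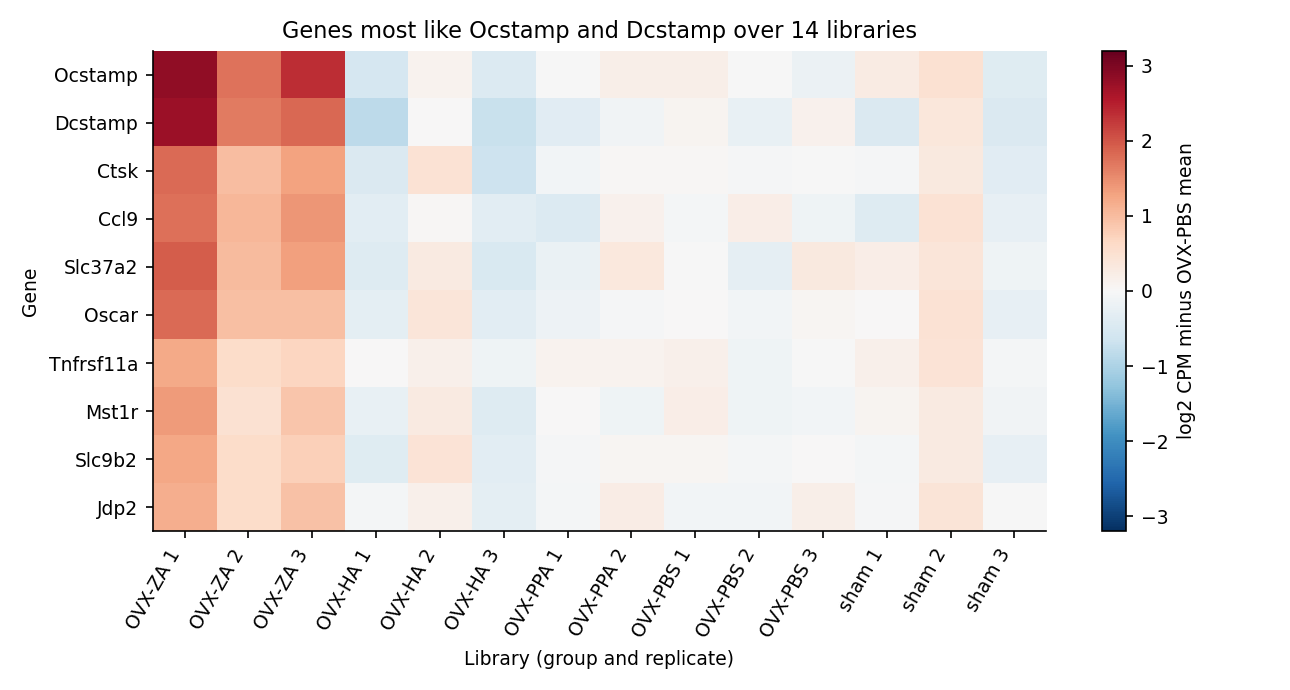
Log2 CPM minus the OVX-PBS mean in each of 14 libraries for Ocstamp, Dcstamp and the 8 genes with the highest correlation to either. Columns are libraries by group and replicate, and all 10 genes are above the OVX-PBS mean in the 3 OVX-ZA libraries, with replicate 1 the highest.

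Other tissue in the libraries was measured beside the pair. OVX-ZA replicates 1 and 2 carried the lymph node transcript Glycam1 at 14.6 and 38.6 CPM, as did sham replicate 3 at 32.5 CPM, while OVX-ZA replicate 3 had 0 counts of it and read 14.3 CPM of Ocstamp and 13.9 of Dcstamp. With OVX-ZA replicates 1 and 2 both left out, the log2 difference from OVX-PBS was 2.39 for Ocstamp and 1.85 for Dcstamp, on a lone OVX-ZA library assumed to vary like the other groups. Without sham replicate 3, OVX-ZA minus sham was 2.01 for Ocstamp and 2.18 for Dcstamp, and OVX-PBS minus sham was -0.39 and 0.0082. The summed level of 5 lymph node markers was 17.2 to 122 CPM in OVX-ZA, 22.5 to 35.002 with OVX-HA, 18.9 to 23.1 with OVX-PPA, 28.1 to 30.4 in OVX-PBS and 23.2 to 108 in sham. Madcam1 was at 0 in 5 libraries. The 10 dendritic cell markers, measured because Dcstamp is also a gene of dendritic cells, summed to 66.1 to 87.8 CPM in OVX-ZA, 66.9 to 76.4 with OVX-HA, 67.4 to 73.1 with OVX-PPA, 67.1 to 74.8 in OVX-PBS and 69.1 to 76.8 in sham. The 12 macrophage and monocyte markers summed to 683 to 837 CPM in OVX-ZA and 603 to 1072 in OVX-PBS. The sums were 595 to 822 CPM with OVX-HA, 466 to 1112 with OVX-PPA and 657 to 1116 in sham. Lyz2 alone averaged 501 CPM in OVX-ZA, so the sum says little of the other markers. In OVX-ZA against OVX-PBS, 4 of the 12 were above and 8 below 0. By edgeR 2 had an unadjusted p under 0.05, both higher, and none passed. The summed level of 12 osteoblast and osteocyte markers was lower under zoledronic acid, at 2249 to 3388 CPM in OVX-ZA, 4797 to 11034 with OVX-HA, 6558 to 6846 with OVX-PPA, 5909 to 7933 in OVX-PBS and 4763 to 6032 in sham. The collagen genes Col1a1 and Col1a2 averaged 1046 and 1102 CPM in OVX-ZA and 2755 and 2977 CPM in OVX-PPA. This sum too therefore says little of the other markers. Of the 12 osteoblast and osteocyte markers, 3 were above and 9 below 0 in OVX-ZA against OVX-PBS, beside 43.8% of all genes above 0. None passed by edgeR, where Bglap, which encodes osteocalcin, had the lowest value at -1.77 ± 0.303 (adjusted p = 0.286). DESeq2 called 4 of the 12, all lower, which were Bglap, Bglap2 and the collagen genes Col1a1 and Col1a2. Over all genes it called 9 lower, of 21745 with a DESeq2 adjusted p. The part of these cell types in the values of the pair was not tested.

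Central nervous system transcripts were low in OVX-PBS replicate 1 and OVX-HA replicate 2, where the sum of 10 markers was 217 to 220 CPM against 1027 to 2889 CPM in the other 12 libraries. Without those 2 libraries the log2 difference of OVX-ZA from OVX-PBS was 2.51 for Ocstamp and 2.22 for Dcstamp. Muscle markers summed to 41625 to 62572 CPM in OVX-ZA and 37165 to 58041 in OVX-PBS. The hindlimb genes Tbx4 and Pitx1 together summed to 0.710 to 2.29 CPM over all libraries, and Pitx1 was at 0 in 1. The defining osteoclast genes were present throughout, with Ctsk at 114 CPM or more in every library.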

How the data were processed

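Tibia poly(A) RNA of 14 mouse libraries was sequenced as single reads of 75 nt from a stranded mRNA kit. Per the submitters' processing notes, CASAVA 1.8.1, Bowtie2 2.2.5, STAR 2.7.8a and Partek were used with build mm10; the sources used here do not give the annotation, the counting tool or its use of strand. The authors deposited estimated counts per gene symbol, of which 20.7% differ from a whole number by more than 0.01, and a second table of log2 values, which the file shows to be log2 of the count plus 0.0001 less a constant per library. Only the counts were used. They were rounded to whole numbers, filtered with filterByExpr (minimum count 10, minimum total 15; 21761 of 55291 symbols kept) and scaled with TMM factors. All 14 libraries entered 1 edgeR 4.0.16 quasi-likelihood fit of group means in R 4.3.3, with Benjamini-Hochberg adjustment over all genes at 0.05; DESeq2 1.42.0 was an alternative. The fit was tested on simulated counts. Standard errors were derived from that edgeR fit, as the size of the log2 difference over the square root of its quasi-likelihood F statistic. Log2 CPM used a prior count of 2, and levels per length used exon unions from GENCODE M21. Named genes were a fixed set of osteoclast genes, the 3 with the smallest p in each of 5 lists, and the 6 most like each member among genes with a mean of at least 1 CPM. The members and lists were chosen with earlier results of these data known. Libraries totalled 11.9 to 35.4 M counts (M, 1000000 counts), and a count of about 50, the lowest for a member, limits the precision of single libraries. Alternatives were another scaling, no filter, a term for central nervous system RNA, a replicate block, libraries left out and DESeq2.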

Additional observations from a re-analysis of the deposited data

How the results depend on the processing

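The alternatives were run for OVX-ZA against OVX-PBS and sham, not against OVX-HA or OVX-PPA, and in both the differences of the pair kept their direction. OVX-ZA against OVX-PBS ranged from 2.11 to 2.65 for Ocstamp and from 1.77 to 2.37 for Dcstamp, and OVX-ZA against sham from 1.94 to 2.47 and from 1.92 to 2.69. Among the other groups, 3 small differences crossed 0, with ranges of -0.00056 to 0.27 for Ocstamp in OVX-PPA against OVX-PBS, and of -0.39 to 0.0032 for Ocstamp and -0.04 to 0.47 for Dcstamp in OVX-PBS against sham. The number of genes called was less stable. In OVX-ZA against OVX-PBS, 0 genes were called by edgeR, against 3 with no filter (both members and Cyp2s1), 6 with central nervous system RNA as a term of the fit (both members among them), 6 without OVX-PBS replicate 1 and OVX-HA replicate 2 (Ocstamp among them), 1 with the 2 groups alone in the fit (Bglap) and 32 by DESeq2, 6 of them in the 5 osteoclast lists. Leaving out each replicate in turn gave 0 to 1, the 1 being Ocstamp without OVX-ZA replicate 2. In OVX-ZA against sham, 0 were called, against 2 with no filter (both members), 5 with that term (both members among them), 2 without those libraries (neither member) and 15 by DESeq2. In OVX-PBS against sham DESeq2 called 1. The causes were not tested. The pair was chosen with its values known, so nothing is read from the calls of Ocstamp and Dcstamp in any setting. Using coding length, Ocstamp stood at 9.67 CPM per kb in OVX-ZA, 1.52 in OVX-HA, 1.95 in OVX-PPA, 1.83 in OVX-PBS and 2.05 in sham, and Dcstamp at 12.3, 1.96, 2.30, 2.72 and 2.44 in the same groups. Coding length is shorter than exon length, which raises these values. At 1494 bases for Ocstamp and 1416 for Dcstamp the lengths are closer, so the ratio of Dcstamp to Ocstamp is smaller. It was below 1 in sham replicate 1, where Ocstamp read 3.29 and Dcstamp 2.74 CPM. Ranked by deviations from the group means, 1 of the 6 genes most like each member was kept, Mst1r for Ocstamp and Oscar for Dcstamp. Whether replicate numbers pair the libraries was not settled. In 4 of 14 libraries the best correlate in another group had the same number. With so few numbers some matches arise without pairing, so this count can neither show nor exclude it. With the replicate block, 0 genes were called in each of 6 comparisons, and OVX-ZA minus OVX-PBS was 2.41 for Ocstamp and 2.15 for Dcstamp. Among the other 4 groups the standard errors of the pair were 0.303 to 0.381. In OVX-HA against sham they were 0.303 for Ocstamp and 0.336 for Dcstamp. More abundant genes had errors above and below these, such as 0.386 for Car2, 0.284 for Acp5 and 0.0953 for Csf1. The part of low counts in the errors was not tested.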
